A study of Rattus norvegicus with 6 samples.

Results

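Genes of DNA replication and mitosis were followed in the accessible chromatin of rat pancreatic islets at 2 ages. The group holds 60 genes, among them the MCM helicase subunits, the cyclins and their kinases, the spindle checkpoint and the E2F transcription factors. Its members are the accessible sites (ACS) whose nearest gene, by the symbol in the deposited table, is one of the 60. There are 170 such ACS in 53 of the genes, out of 101603 distinct ACS in all. *Ccnb2*, *Aurka*, *Cenpe*, *Cdca8*, *Mki67*, *E2f2* and *Orc1* have no ACS under their symbol in the table. The ACS fall into 3 classes by distance to the gene start: TSS (within 1 kb), PROXIMAL (1 to 10 kb) and DISTAL (beyond 10 kb).

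Accessibility was measured by ATAC-seq, where each cut that Tn5 makes in DNA free of nucleosomes is read as an integration. The Adult group consists of 3 male Sprague–Dawley rats of around 90 days, 1 library each (Adult 4, 5 and 6). The P10 group consists of 3 libraries (P10 1, 2 and 3), each from the islets of a few pups of a litter, male and female, at postnatal day 10. The labels give no treatment, and the dissociated islet cells were not sorted. By the methods of the paper, pup pancreases were digested with collagenase by hand shaking, while in adults the enzyme was injected into the duct. Age, sex, islet isolation and single rats against pooled litters therefore cannot be told apart. Nor can a change in chromatin be told from a change in the mix of cells. The adult libraries hold 7916919 to 11903909 Tn5 integrations in ACS and the P10 libraries 13491534 to 21168463. Values are CPM, integrations in an ACS per 1000000 integrations in all ACS after TMM scaling, and an ACS was called Up (more accessible in adults) or Down (more accessible in P10) at p under 0.05 and an adjusted p under 0.2 in edgeR, adjusted over all ACS. The p-values measure the spread between these 3 libraries a group.

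Cells that divide copy their DNA once and then separate the copies. Licensing factors load the MCM helicase at origins, fork enzymes copy the strands, and cyclin-dependent kinases drive entry into mitosis, where kinases, kinesins and the anaphase promoting complex sort the chromosomes. In resting cells E2F, RB and MuvB complexes are known to hold many of these genes silent through E2F sites and through the CHR element, which often stands beside CCAAT boxes bound by NF-Y. Islet beta cells divide often in young pups and rarely in adults.

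Letters of those elements stood in part of the promoter windows of these genes, at higher shares than over all genes. RefSeq promoter windows of 300 bases (250 before to 50 after the start, GRCr8 build) were found for 49 of the 60 genes. Of these 49 genes, 43 have a TSS-class ACS by gene ID, as do 7959 of all genes with a window. *Mki67*, which has no ACS under its symbol, is one of the 43. The E2F letters TTTGGCGC, TTTCGCGC or TTCCCGCC, searched on both strands, were present in 17 of the 43 windows, or 39.5%, against 5.36% of the 7959. The CHR letters TTTGAA were present in 18 of 43 (41.9% against 10.6%), and the CCAAT box in 31 of 43 (72.1% against 38.0%). Both CHR and CCAAT letters stood in 14 windows, 32.6% against 4.41%. With no condition on an ACS, the shares of the 49 members and of all 27457 genes were 34.7% and 2.83% for E2F letters, 40.8% and 18.1% for CHR letters, and 73.5% and 37.7% for the CCAAT box. Matches can overlap, as in *Mcm2*, *Mcm6* and *Mcm7*. The windows are of another build than the ACS (Rn5), so a match is a description of the letters and was not placed inside an ACS.

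**Figure D1:**
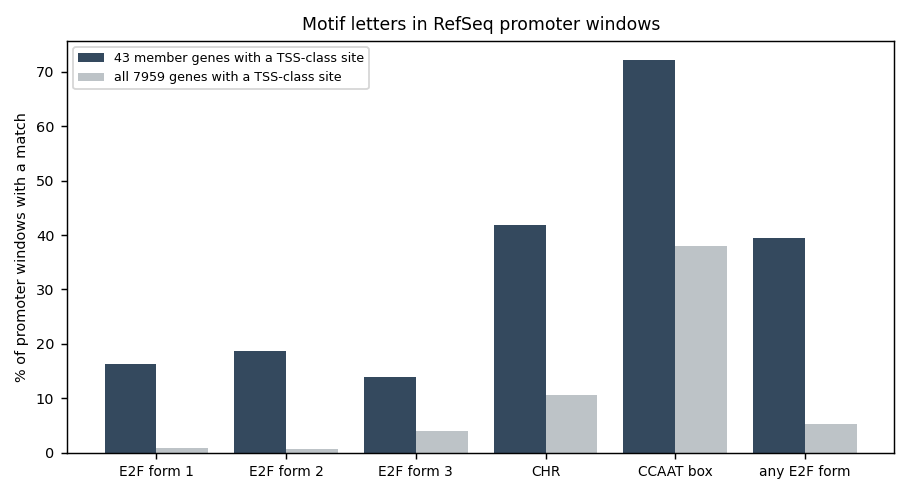
Share of promoter windows (y axis, percent) that hold each set of letters (x axis). Dark bars are the 43 replication and mitosis genes with a TSS-class ACS by gene ID, and pale bars all 7959 genes with one. E2F forms 1, 2 and 3 are TTTGGCGC, TTTCGCGC and TTCCCGCC. The dark bar is the taller in every pair, from 14.0% against 3.95% for form 3 to 72.1% against 38.0% for the CCAAT box.

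The 150 bases before the start are shown for the called promoters that have a window, with those of *Cdk1*, *Mcm2* and *Ccnb1*, which were not called, for comparison. Capitals mark the E2F, CHR and CCAAT letters on either strand, and each is written 5′ to 3′ along the strand of the gene. *Aurkb* has no window in the table.
Cdc20 (chr5:137255800-137255949, minus strand, GRCr8): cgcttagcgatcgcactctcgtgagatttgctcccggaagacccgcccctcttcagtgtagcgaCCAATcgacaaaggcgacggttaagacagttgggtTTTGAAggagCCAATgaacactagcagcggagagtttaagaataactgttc
Plk1 (chr1:186147508-186147657, plus strand, GRCr8): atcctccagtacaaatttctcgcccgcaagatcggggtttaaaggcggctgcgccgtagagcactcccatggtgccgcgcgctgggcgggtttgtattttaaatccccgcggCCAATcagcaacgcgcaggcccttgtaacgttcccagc
Pcna (chr3:139955821-139955970, minus strand, GRCr8): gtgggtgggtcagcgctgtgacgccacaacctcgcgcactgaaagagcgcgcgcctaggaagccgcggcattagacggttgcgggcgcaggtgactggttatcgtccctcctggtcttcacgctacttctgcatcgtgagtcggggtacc
Gmnn (chr17:40729684-40729833, plus strand, GRCr8): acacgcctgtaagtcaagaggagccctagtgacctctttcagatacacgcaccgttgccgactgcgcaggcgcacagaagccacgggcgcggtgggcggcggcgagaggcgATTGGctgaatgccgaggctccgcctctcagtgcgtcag
Mcm6 (chr13:42404353-42404502, minus strand, GRCr8): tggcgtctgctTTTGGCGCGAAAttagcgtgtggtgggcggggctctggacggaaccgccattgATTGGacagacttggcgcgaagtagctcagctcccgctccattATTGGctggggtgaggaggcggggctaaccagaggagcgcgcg
Cdk1 (chr20:19265143-19265292, plus strand, GRCr8): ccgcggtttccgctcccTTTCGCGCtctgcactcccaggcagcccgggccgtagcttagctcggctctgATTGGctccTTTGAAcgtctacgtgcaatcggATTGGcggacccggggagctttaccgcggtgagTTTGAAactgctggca
Mcm2 (chr4:122918095-122918244, minus strand, GRCr8): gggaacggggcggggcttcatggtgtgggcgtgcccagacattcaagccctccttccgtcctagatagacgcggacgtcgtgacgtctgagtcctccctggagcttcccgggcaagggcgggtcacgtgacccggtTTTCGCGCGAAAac
Ccnb1 (chr2:33655226-33655375, minus strand, GRCr8): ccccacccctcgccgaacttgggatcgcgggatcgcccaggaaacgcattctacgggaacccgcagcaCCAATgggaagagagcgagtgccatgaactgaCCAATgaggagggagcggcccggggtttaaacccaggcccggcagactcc
*Cdc20*, a called promoter, and *Cdk1*, which was not called, both carry CHR letters together with CCAAT boxes in this stretch. *Mcm6* and *Mcm2* both carry E2F letters. In *Pcna* no searched letters fall in the stretch, and its only match, a CCAAT box, lies further upstream. *Gmnn* has E2F letters and *Plk1* has CHR letters just after the start, outside the stretch.

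The promoters were accessible at both ages. Of the 53 TSS-class ACS, in 50 genes, 46 overlap the gene start. Per kilobase of ACS their median level was 35.6 CPM, against 24.4 CPM over all TSS-class ACS. *E2f3*, which codes for an activating E2F factor, had the highest level per kilobase, with 160 to 186 CPM per kb in adults and 144 to 156 in P10. *Ccna2* (cyclin A2) followed with 116 to 126 and 105 to 126 CPM per kb, ranges that overlap between the ages. The lowest was *Aurkb*, at the 7.66th percentile of its class. *Ccne2* has no TSS-class ACS, but the ACS over its start, classed as PROXIMAL, held 71.4 CPM in adults and 68.0 CPM in P10. *Cdc45* and *Orc6* have 1 DISTAL ACS each and none at the start under their symbol. In RefSeq the starts of *Ufd1* and *Vps35* lie 755 and 133 bases from theirs. An ACS there may be listed under the neighbour, and this was not looked up.

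**Figure D2:**
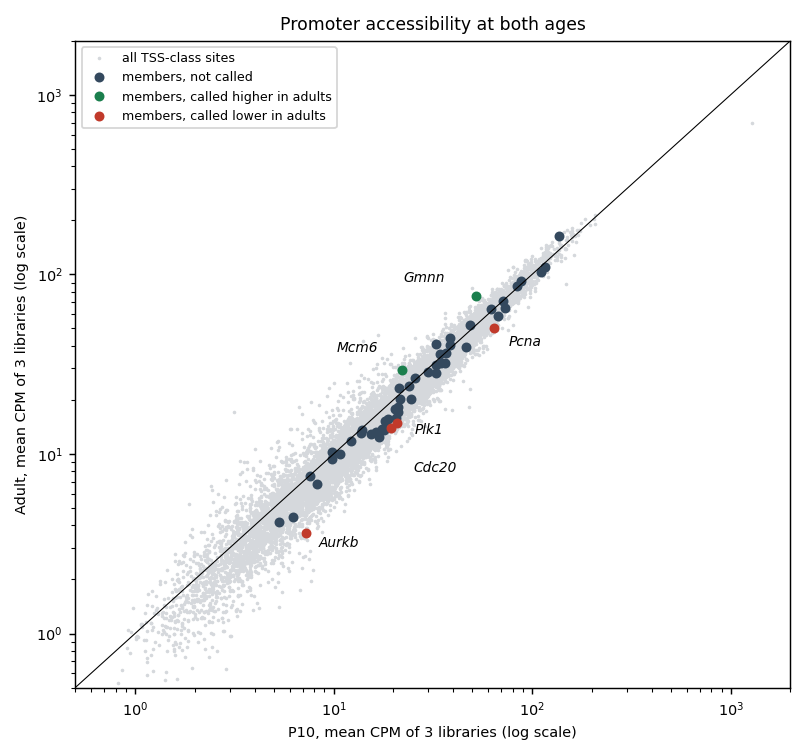
Mean CPM of 3 adult libraries (y axis) against that of 3 P10 libraries (x axis), both on a log scale, for the 11055 TSS-class ACS (pale points) and the 53 of replication and mitosis genes (dark points, green where called Up and red where called Down). The line marks equal levels, and the members lie along it, *Aurkb* farthest below and *Gmnn* above.

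Few of these promoters were called as changed with age. Of the 53 TSS-class ACS, 2 were called Up (*Gmnn* and *Mcm6*) and 4 Down (*Aurkb*, *Plk1*, *Cdc20* and *Pcna*), or 3.77% and 7.55%. Of all 11055 TSS-class ACS, 2.73% were called Up and 7.87% Down, so both shares of the members lie near the background. The median log2 fold change (Adult over P10) was -0.11 over the members and -0.10 over all TSS-class ACS, and 39 of 53 members (73.6%) lay below 0, against 65.6% of all. In 3 members the lowest adult value exceeded the highest P10 value, and in 9 the highest adult value was under the lowest P10 value, where the background is 5.24% and 15.6% of all TSS-class ACS. The split of calls depends on the scaling: it was 1 Up and 10 Down with column sums alone, and with TMM factors from TSS-class ACS alone 4 Up and 1 Down. The shares of all TSS-class ACS moved as well, to 1.78% Up and 17.2% Down with column sums. With TMM factors from TSS-class ACS they were 5.69% and 4.74%. For 51 of the 53 ACS the 95% interval of the log2 fold change lay between -1 and 1. The exceptions were *Aurkb* and an ACS upstream of *Fen1*. Changes larger than 2-fold lie outside the intervals of the others, but smaller changes can lie inside them, so an ACS without a call may still have changed.

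**Figure D3:**
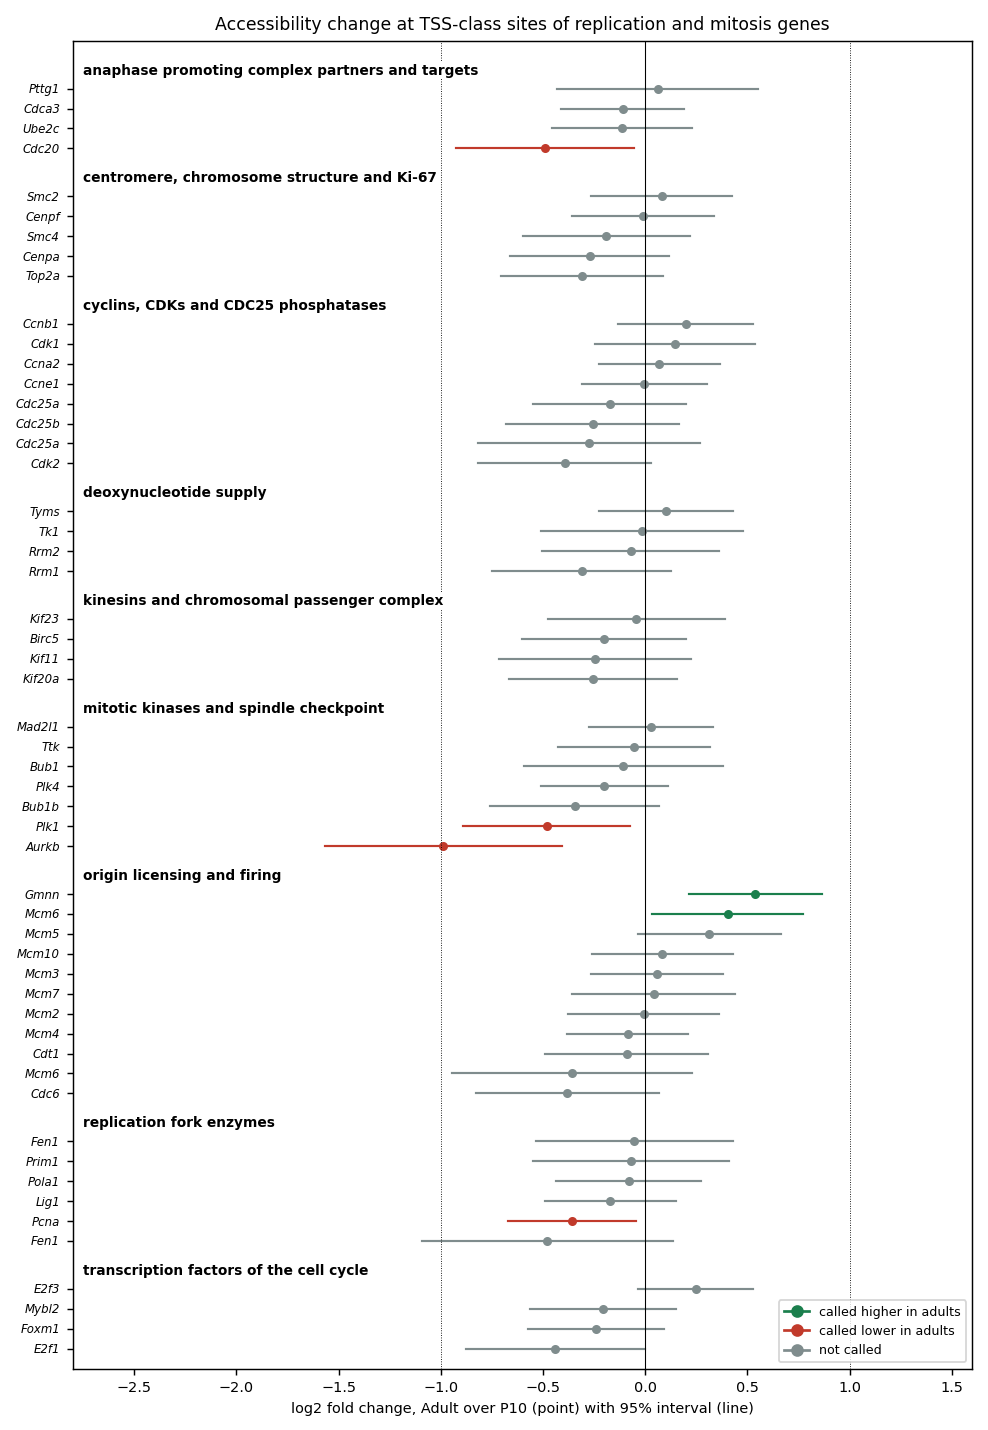
Log2 fold change, Adult over P10 (x axis), of each TSS-class ACS of the replication and mitosis genes, grouped by role (y axis), with its 95% interval as a line. Green marks ACS called Up, red ACS called Down and grey the rest, and dotted lines stand at -1 and 1. Most intervals cross 0.

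Integrations in these TSS-class ACS made up 0.184, 0.202 and 0.191% of the 3 P10 libraries and 0.182, 0.171 and 0.173% of the 3 adult libraries. All adult values lie below all P10 values, by little. As a share of integrations in all TSS-class ACS the mean was 0.689% ± 0.00084 (SD, n = 3) for Adult and, for P10, 0.682% ± 0.034 (SD, n = 3), which differ by less than the spread between the P10 libraries.

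Origin licensing and firing genes held both Up calls, at 2 of 11 TSS-class ACS in 10 genes, with no Down call. Of all TSS-class ACS 2.73% were called Up and 7.87% Down. The counts of a role, here and below, were not tested against these shares. *Gmnn* codes for geminin, which binds the licensing factor CDT1 and blocks reloading of the MCM helicase. Its promoter ACS (chr17:44169967-44170898, Rn5, over the gene start) held 87.8, 64.6 and 74.8 CPM in Adult 4, 5 and 6 and 46.3, 55.5 and 54.7 CPM in P10 1, 2 and 3. All adult values exceeded all P10 values, and the log2 fold change was 0.54 (SE 0.16, adjusted p = 0.0291). It was called with each library left out in turn, at 0.42 to 0.64. *Mcm6*, a subunit of the replicative helicase, held 30.1, 26.6 and 30.9 CPM in adults and 19.8, 21.8 and 24.7 CPM in P10 at its start (chr13:50152424-50152872). The groups do not overlap, but the log2 fold change of 0.40 (SE 0.18, adjusted p = 0.183) was called in only 1 of the 6 fits that leave out a library, the one without Adult 5, and was not called with column sums (0.31, adjusted p = 0.289), by DESeq2 (0.39, adjusted p = 0.208) or with a mean count of at least 50 (0.31, adjusted p = 0.219). A further *Mcm6* ACS inside the gene, also of class TSS, lay in the other direction at -0.36 (log2). It was not called, though all its adult values were under all its P10 values.

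The other MCM promoters were not called. *Mcm2* held 25.7, 22.3 and 24.1 CPM in adults and 26.5, 22.0 and 23.8 CPM in P10, and the interval of its log2 fold change ran from -0.38 to 0.36. *Mcm4* was the licensing promoter with the most integrations, at 126, 98.7 and 105 CPM in adults and 116, 120 and 114 CPM in P10, a log2 fold change of -0.09 (SE 0.14). The values of both ages overlap at each of these promoters. *Mcm3*, *Mcm7*, *Mcm10* and *Cdt1* lay between -0.09 and 0.08, *Mcm5* at 0.31 and *Cdc6*, whose product loads the helicase, at -0.38, none of them called.

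Among replication fork enzymes 1 of 6 TSS-class ACS was called, and all 6 log2 fold changes were below 0. *Pcna* codes for the sliding clamp that holds DNA polymerase on its template. Its promoter (chr3:131379580-131380542) held 52.2, 44.3 and 53.5 CPM in adults and 66.7, 64.9 and 60.6 CPM in P10. The groups do not overlap, with a log2 fold change of -0.36 (SE 0.15, adjusted p = 0.163). The call was lost in 5 of the 6 fits that leave out a library, at -0.41 to -0.28, and was made only without Adult 4. With TMM factors from TSS-class ACS it was -0.26 and not called. *Lig1*, the ligase of lagging strand synthesis, had the highest promoter counts of this role, with 77.5, 62.1 and 55.7 CPM in adults and 67.9, 75.1 and 77.3 CPM in P10, and was not called. *Pola1*, on chromosome X, had a log2 fold change of -0.08, where the median of all TSS-class ACS on X was -0.16.

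None of the 4 promoters of deoxynucleotide supply was called. *Tyms*, the thymidylate synthase gene, held 53.6, 45.4 and 58.0 CPM in adults and 43.3, 49.0 and 53.9 CPM in P10, which overlap, with a log2 fold change of 0.10 (SE 0.16). *Tk1* and *Rrm2* lay at -0.02 and -0.07, and *Rrm1*, which codes for the large subunit of ribonucleotide reductase, at -0.31.

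Cyclins, CDKs and CDC25 phosphatases had no called promoter in 8 TSS-class ACS of 7 genes. *Cdk1*, the kinase of mitotic entry, held 25.0, 25.3 and 19.9 CPM in adults and 19.0, 24.7 and 20.0 CPM in P10, with an interval of the log2 fold change from -0.25 to 0.53. *Ccnb1*, its cyclin B1 partner, held 40.8, 45.7 and 46.0 CPM in adults and 34.1, 41.9 and 39.5 CPM in P10, with an interval from -0.14 to 0.53. *Ccna2* held 93.1, 88.3 and 95.8 CPM in adults and 80.1, 96.5 and 87.9 CPM in P10, with an interval from -0.23 to 0.36. In all 3 genes the libraries of both ages overlap. *Cdk2*, which acts at the start of S phase, was the lowest of this role at -0.39 (interval -0.82 to 0.03), not called, though its groups do not overlap.

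Mitotic kinases and the spindle checkpoint held 2 of the 4 Down calls, at 2 of 7 promoters, where 7.87% of all TSS-class ACS were called Down. *Aurkb* codes for Aurora B, the kinase of the chromosomal passenger complex. Its promoter (chr10:55369216-55369785) held 3.98, 4.09 and 2.84 CPM in adults and 8.69, 7.13 and 5.97 CPM in P10. All adult values were under all P10 values, and the log2 fold change was -0.99 (SE 0.28, adjusted p = 0.0246), the largest of the 53 TSS-class ACS in either direction. It was called without any one library, at -1.13 to -0.84, and under all 8 other settings of scaling, test and filter. *Plk1*, a kinase that acts from mitotic entry to division, held 16.0, 12.6 and 16.2 CPM in adults and 21.1, 22.8 and 18.8 CPM in P10 at its promoter (chr1:199177783-199178469). The groups do not overlap, with a log2 fold change of -0.48 (SE 0.20, adjusted p = 0.144). That call was lost without P10 2 (-0.43) or Adult 5 (-0.37), and with TMM factors from TSS-class ACS (-0.39).

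The other checkpoint promoters were not called. *Mad2l1*, which codes for the checkpoint protein MAD2, held 92.6, 78.2 and 87.1 CPM in adults and 76.0, 89.2 and 88.0 CPM in P10, with overlapping groups and an interval from -0.27 to 0.33. *Bub1b* lay at -0.35 without overlap between the groups, and *Ttk*, *Bub1* and *Plk4* lay at -0.06, -0.11 and -0.20.

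Of the partners and targets of the anaphase promoting complex, 1 of 4 promoters was called. *Cdc20*, its mitotic activator, held 13.5, 15.1 and 13.1 CPM in adults and 23.7, 20.5 and 14.4 CPM in P10 (chr5:141054222-141054851). P10 3 lies below Adult 5, so the groups overlap, and the log2 fold change was -0.49 (SE 0.21, adjusted p = 0.17). The call was lost without P10 1 (-0.34), P10 2 (-0.47), Adult 4 (-0.47) or Adult 6 (-0.45), by limma voom (-0.46, adjusted p = 0.23) and with TMM factors from TSS-class ACS (-0.39). *Cdca3* had 118, 96.5 and 94.2 CPM in adults and 121, 114 and 98.8 CPM in P10, which overlap, with a log2 fold change of -0.11 (SE 0.15). *Ube2c* and *Pttg1*, the latter coding for securin, lay at -0.11 and 0.06.

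No promoter was called among the kinesins and the chromosomal passenger complex (4 ACS) or among centromere and chromosome structure genes (5 ACS). *Birc5*, which codes for survivin, a partner of Aurora B, held 17.9, 20.5 and 16.8 CPM in adults and 18.8, 25.0 and 19.8 CPM in P10, with a log2 fold change of -0.20 (SE 0.20). *Top2a*, the topoisomerase that untangles replicated DNA, has its TSS-class ACS just upstream of the start, with 18.3, 16.5 and 16.4 CPM in adults and 19.2, 24.2 and 20.1 CPM in P10. Its groups do not overlap, but the log2 fold change of -0.31 (SE 0.19, adjusted p = 0.39) was not called. It was called with column sums and with a mean count of at least 50, at -0.40 in both. *Smc2*, a condensin subunit, held 43.4, 36.9 and 41.4 CPM in adults and 31.7, 43.7 and 39.9 CPM in P10, an overlapping pair with a log2 fold change of 0.08 (SE 0.17).

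The 4 promoters of cell cycle transcription factors were not called, and the 2 E2F genes with a TSS-class ACS had values of opposite sign. *E2f1* held 11.4, 15.3 and 10.4 CPM in adults and 17.1, 18.0 and 15.4 CPM in P10, with no overlap and a log2 fold change of -0.44 (SE 0.21, adjusted p = 0.232). It was called with column sums (-0.53), with a mean count of at least 50 (-0.52) and without Adult 5 (-0.62). *E2f3* held 172, 148 and 169 CPM in adults and 133, 134 and 144 CPM in P10, again with no overlap, and a log2 fold change of 0.25 (SE 0.14, adjusted p = 0.317). It was called by limma voom (0.24, adjusted p = 0.197), with TMM factors from TSS-class ACS (0.34) and without Adult 5 (0.31). *Foxm1*, an activator of mitotic genes, held 42.0, 39.3 and 37.0 CPM in adults and 40.8, 51.0 and 48.4 CPM in P10, with a log2 fold change of -0.24 (SE 0.16), called with column sums (-0.34) and with a mean count of at least 50 (-0.33), and *Mybl2* lay at -0.21. Over the 5 roles without a called promoter, *E2f1* was the only TSS-class ACS with an unadjusted p under 0.05, *E2f3* the only one called by limma voom, and DESeq2 called 0.

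**Figure D4:**
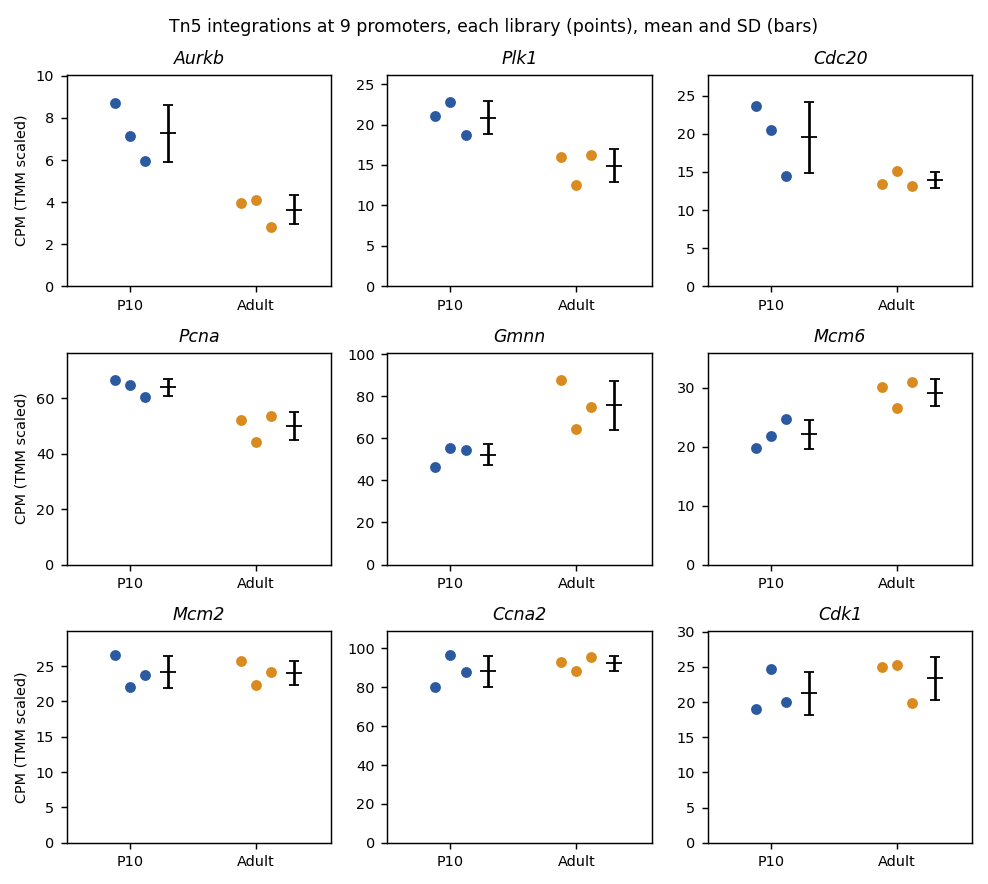
CPM of each library (points) at 9 promoters, P10 in blue and Adult in orange, with the mean and SD of 3 libraries as bars (y axes start at 0). *Aurkb*, *Plk1*, *Cdc20* and *Pcna* were called Down and *Gmnn* and *Mcm6* Up, and the groups overlap at *Cdc20* and at the 3 promoters in the bottom row, which were not called.

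Some gene starts lie close to that of a neighbour. In 13 of the 49 genes with a window (26.5%), the start of a gene on the opposite strand, facing away, lies within 1000 bp, against 10.9% of all 27457 genes in the RefSeq promoter table. These pairs include *Cdca3* and *Usp5*, *Fen1* and *Tmem258*, *Lig1* and *Zswim9*, *Mcm7* and *Ap4m1*, *Tk1* and *Afmid*, and *Kif20a* and *Brd8*. *Cdc20*, called Down, has such a neighbour 135 bases away, LOC103692460. The distances are of GRCr8 and were not placed in the ACS. Of the 13 genes, *Cdc45*, *Orc6* and *Cdca8* have no TSS-class ACS under their symbol. Integrations in the TSS-class ACS of the others cannot be assigned to 1 gene of the pair.

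The ACS away from the starts were few near most genes, and 18 of the 60 genes had only TSS-class ACS. The 97 DISTAL ACS belong to 29 genes, led by *Cdk1* with 14, *E2f3* with 12 and *Mcm4* with 9. They lie 10339 to 261904 bp from the start of the gene, with a median of 38889 bp, against 98350 bp for all DISTAL ACS, and the nearest gene need not be the one they act on. Of the 97, 14 were called Up and 5 Down, or 14.4% and 5.15%, beside 13.8% Up and 6.45% Down of all 80543 DISTAL ACS. With column sums the split was 10 Up and 6 Down, and with TMM factors from TSS-class ACS 15 Up and 1 Down. Over all 101603 ACS of every class, 12504 Up and 6738 Down calls became 10447 and 10732 with column sums. With TMM factors from TSS-class ACS they became 15804 and 4414. The median log2 fold change of the 97 was 0.05, against 0.02 for all DISTAL ACS. Both shares of the DISTAL members lie near the background. In 11 of the 97 every adult value exceeded every P10 value, and in 7 every adult value was under every P10 value. Over all 80543 DISTAL ACS these counts were 12224 and 8221. Of the 20 PROXIMAL ACS, 1 was called Up and 1 Down, where 11.2% and 6.71% of all PROXIMAL ACS were.

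The smallest p-value of all 170 ACS was at *Rrm2*, which codes for the small subunit of ribonucleotide reductase. An ACS 17044 bp from its start, downstream of the gene (chr6:60773204-60774026), held 29.6, 19.9 and 29.6 CPM in adults and 14.4, 10.1 and 12.1 CPM in P10. The groups do not overlap, with a log2 fold change of 1.11 (SE 0.21, adjusted p = 0.000823). A second ACS, 36426 bp downstream (chr6:60792586-60792794), was called in the other direction, with 0.271, 1.07 and 0.773 CPM in adults and 2.65, 2.21 and 1.74 CPM in P10 and a log2 fold change of -1.66 (SE 0.47, adjusted p = 0.0219). The promoter of *Rrm2* lay between them in value, at -0.07 and not called.

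*E2f3* had 3 Up calls among 12 DISTAL ACS, all downstream of the gene on chromosome 17. Of all DISTAL ACS 13.8% were called Up, and the counts of single genes, here and below, were not tested against this share. The ACS 148746 bp away (chr17:37790601-37790881) held 9.76, 9.35 and 9.80 CPM in adults and 3.77, 3.42 and 4.34 CPM in P10, a log2 fold change of 1.32 (SE 0.26, adjusted p = 0.000963). The ACS 159817 bp away (chr17:37801672-37802042) held 10.9, 7.50 and 9.67 CPM in adults and 6.09, 3.07 and 3.54 CPM in P10, a log2 fold change of 1.13 (SE 0.28, adjusted p = 0.00967). The ACS 143663 bp away (chr17:37785518-37785858) held 9.85, 7.40 and 14.6 CPM in adults and 3.95, 6.35 and 5.39 CPM in P10, a log2 fold change of 1.02 (SE 0.27, adjusted p = 0.0165). At none of these do the groups overlap, yet an ACS between them, 146910 bp away, lay at -0.07 and was not called. The other uncalled DISTAL ACS of *E2f3* ranged from -0.37 to 0.63.

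*Cenpf*, which codes for a kinetochore protein, had 2 Up calls among 6 DISTAL ACS. The one 13756 bp upstream (chr13:112818721-112818978) held 6.78, 5.75 and 4.51 CPM in adults and 2.56, 2.50 and 2.11 CPM in P10, a log2 fold change of 1.26 (SE 0.30, adjusted p = 0.00721). The one inside the gene, 22799 bp from its start (chr13:112782166-112782661), held 8.86, 7.21 and 10.6 CPM in adults and 4.60, 4.28 and 4.28 CPM in P10, a log2 fold change of 1.01 (SE 0.26, adjusted p = 0.0118). All adult values exceeded all P10 values at both, while the *Cenpf* promoter lay at -0.01.

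Both DISTAL ACS of *Mcm6*, upstream of the gene, were called Up like the ACS at its start. The one 25995 bp away (chr13:50178678-50179194) held 8.49, 8.08 and 10.7 CPM in adults and 5.58, 4.99 and 4.07 CPM in P10, a log2 fold change of 0.89 (SE 0.26, adjusted p = 0.0261). The one 18302 bp away (chr13:50170985-50171663) held 31.6, 25.5 and 29.9 CPM in adults and 18.6, 22.0 and 18.4 CPM in P10, a log2 fold change of 0.56 (SE 0.18, adjusted p = 0.0516). The groups do not overlap at either ACS. *Mcm4*, with 9 DISTAL ACS between 14706 and 85633 bp, had 0 calls by edgeR, limma voom or DESeq2 and 0 at an unadjusted p under 0.05, its log2 fold changes running from -0.45 to 0.71.

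*Cdk1* had 3 Up calls among 14 DISTAL ACS. The ACS 172879 bp upstream (chr20:22522042-22522280) held 8.58, 7.30 and 7.09 CPM in adults and 5.30, 5.42 and 2.59 CPM in P10, without overlap, a log2 fold change of 0.79 (SE 0.29, adjusted p = 0.0872). The call was lost without P10 3 (0.50) or Adult 4 (0.70). The other called ACS, 18244 and 65346 bp downstream, lay at 0.65 and 1.04, both with overlapping groups.

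The remaining calls away from promoters had log2 fold changes between -0.90 and 1.04. They are *Rrm1* (0.70 and 0.85), *Cdk1* (0.65 and 1.04), *Smc2* (0.98), *Ccne2* (-0.84), *Mybl2* (-0.87), *Birc5* (-0.90), a *Gmnn* ACS 41040 bp downstream (-0.71), and the PROXIMAL calls at *Bub1* (-0.66) and *Kif11* (0.59). Each of these 11 calls was lost without Adult 4. Those of *Rrm1*, *Gmnn*, *Bub1* and *Cdk1* were also lost without P10 2 or P10 3, those of *Mybl2*, *Birc5* and *Kif11* without P10 1 or P10 2, and those of *Ccne2* and *Smc2* without P10 1 or P10 3. Without Adult 6 the calls at *Gmnn*, *Bub1*, *Smc2*, *Mybl2* and *Birc5* were lost, and without Adult 5 both of *Cdk1*. Without Adult 4 the *Rrm1* ACS 77027 bp upstream fell from 0.85 to 0.16 and the *Smc2* ACS from 0.98 to 0.48. Without P10 1 the *Mybl2* ACS lay at -0.57 and that of *Birc5* at -0.61, and without P10 2 the *Cdk1* ACS 65346 bp away lay at 0.60. With TMM factors from TSS-class ACS the Down calls at *Birc5*, *Bub1*, *Ccne2*, *Gmnn* and *Mybl2* were lost, and with column sums the Up calls at *Kif11*, *Smc2*, both *Cdk1* ACS and the *Rrm1* ACS 77027 bp upstream. *Rrm2* and *Gmnn* were the 2 genes with calls in both directions.

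**Figure D5:**
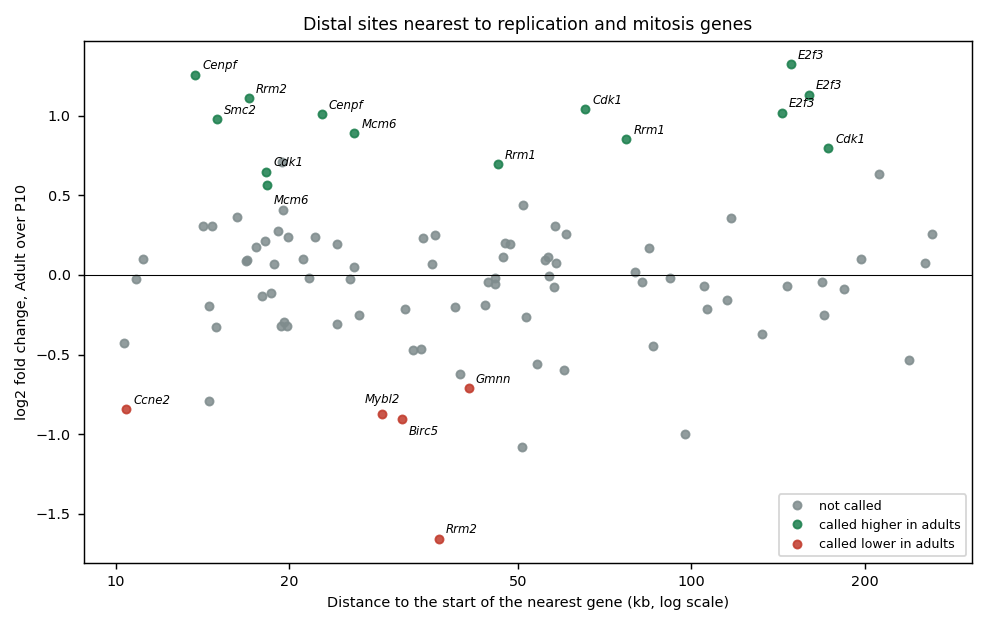
Log2 fold change, Adult over P10 (y axis), of the 97 DISTAL ACS against the distance to the start of their gene in kb (x axis, log scale), with ACS called Up in green, called Down in red and the rest in grey. The calls Up include 3 near *E2f3* beyond 100 kb, and the lowest value is an ACS downstream of *Rrm2* at -1.66.

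Further genes of the same pathways were counted at their promoters. Of 27 TSS-class ACS of other replication genes, 0 were called Up and 1 Down, that of *Dbf4* (-0.53), the activator of the CDC7 kinase. Of 19 of other mitosis genes, 0 were called Up and 4 Down: the kinesins *Kif18a* (-0.54), *Kif18b* (-0.64) and *Kifc1* (-0.47) and the cohesin gene *Smc3* (-0.41). The Down shares are 3.70% and 21.1%, where 2.73% of all TSS-class ACS were called Up and 7.87% Down. *Kif18a* had 66.2, 57.1 and 73.3 CPM in adults and 81.5, 101 and 103 CPM in P10, without overlap. Of the 5 of other E2F, RB and MuvB genes, edgeR called 0 in either direction, 1 had an unadjusted p under 0.05 (lower in adults), DESeq2 called 1 Down and limma voom 0. Higher in adults at an unadjusted p under 0.05 was 1 ACS of the mitosis genes and 0 of the other lists, and limma voom and DESeq2 called 0 Up in each. The medians of the 3 lists were -0.17, -0.13 and -0.08, beside -0.10 for all TSS-class ACS.

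Markers of the cell types that islets can hold were read as well. At promoters the shares over all TSS-class ACS were 2.73% Up and 7.87% Down. Of the duct markers 3 of 4 TSS-class ACS were called Down (*Cftr*, *Sox9* and *Muc1*), with a summed level of 23.5 to 26.4 CPM in adults and 36.4 to 42.5 CPM in P10. The 1 TSS-class ACS of the immune markers, at *Cd74*, was called Up, at 26.4 to 36.7 CPM against 15.9 to 17.6 CPM. Of 16 islet endocrine genes 11 have an ACS (*Chga*, *G6pc2*, *Insm1*, *Mafa* and *Ppy* have none under their symbol), and the *Ins1* promoter held 75.1 to 94.9 CPM in adults and 106 to 203 CPM in P10. Of their TSS-class ACS 4 of 11 were called Down, at *Ins1*, *Ins2* and both of *Hhex*, with sums of 210 to 282 and 275 to 395 CPM. Acinar, endothelial and mesenchymal markers had 0 calls by edgeR in 3, 2 and 6 TSS-class ACS, where 1 acinar ACS had an unadjusted p under 0.05 and 1 was called Down by limma voom. DISTAL ACS of the duct markers summed to 197 to 230 CPM in adults and 154 to 173 CPM in P10, with 4 Up and 3 Down calls in 32, among them 2 Up at *Cftr* (1.82 and 0.70) and both directions at *Sox9*. Endothelial DISTAL ACS had 9 Up and 3 Down calls in 60, at 427 to 515 CPM against 391 to 415 CPM. Those Up calls were mostly at *Cdh5*, the rest at *Kdr* and *Flt1*, and the Down calls were at *Emcn*, *Pecam1* and *Tie1*. Mesenchymal DISTAL ACS had 10 Up and 3 Down in 57, at 405 to 470 CPM against 368 to 392 CPM. Acinar DISTAL ACS had 4 Up and 4 Down in 49, immune ones 0 in 7 by edgeR, limma voom or DESeq2 and 0 at an unadjusted p under 0.05, and islet endocrine ones 14 Up and 9 Down in 101. Of all DISTAL ACS, 13.8% were called Up and 6.45% Down. PROXIMAL ACS of the immune markers had 0 Up and 1 Down call in 4 (*Csf1r*, -0.94), and those of the mesenchymal markers 0 and 2 in 5. For the duct and endothelial markers they were 0 and 1 in 5 and 1 and 0 in 7. Acinar PROXIMAL ACS had 1 and 2 in 11 and islet endocrine ones 2 and 2 in 15. Of all PROXIMAL ACS, 11.2% were called Up and 6.71% Down. The part of these shifts in the values of the replication and mitosis genes was not tested.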

How the data were processed

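ATAC-seq libraries of islet cells were compared between 3 adult rats and 3 P10 litters. The authors mapped reads with BWA 0.7.13 to the Rn5 build, kept reads of high mapping quality, removed mitochondrial reads, called peaks with MACS2 2.1.1 on the concatenated samples of each age and joined both sets of ACS. The deposited counts are raw numbers of Tn5 integrations in each ACS, made with pyDNase and not normalized. Removal of PCR duplicates is not given in the sources used here, so errors and intervals stand on the counts as deposited. The same table holds the authors' fold changes, average log CPM, test scores and p-values, which were not used.

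Of 101941 entries 101603 are distinct ACS, and each was tested once, with no filter on low counts. Counts were scaled by TMM (factors 0.93 to 1.04) and tested with the quasi-likelihood test of edgeR 4.0.16 in R 4.3.3, age being the only term, with Benjamini-Hochberg adjustment over all ACS. Standard errors were taken from the unshrunk coefficient and the F statistic, and intervals cover 95%. limma 3.58.1 (voom) and DESeq2 1.42.0 (Wald test) served as alternatives, with other scalings, filters on low counts and leaving out each library. In simulated counts for 101603 ACS with 200 changed by 1 on the log2 scale, 43% were called in the right direction, and 15 unchanged ACS were called. The 200 were drawn from ACS above a minimum mean count. They are far fewer than the 12504 Up and 6738 Down calls in the data, and the adjusted p depends on that share. The 43% is therefore not the sensitivity of the calls given here.

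The members and the gene lists were chosen with earlier results of these data known, and the lists support no direction. ACS named in full are the 12 called with the smallest p-values, the TSS-class ACS with the highest mean CPM in each role, and those of *Mki67*, *Top2a*, *Pcna*, *Mcm2*, *Cdk1*, *Ccnb1*, *Ccna2*, *Foxm1* and *E2f1*. Further values, such as *Kif18a* of the other lists, were chosen after they were seen. Members were matched by symbol. Promoter windows are from RefSeq (GRCr8), matched by symbol for 49 of 60 genes, and the alternative starts of a gene were counted once. Figures were drawn with matplotlib 3.10.9.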

Additional observations from a re-analysis of the deposited data

How the results depend on the processing

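Counts of calls depended on scaling and filter, and are given as Up then Down for ACS of the members. At promoters, 2 and 4 became 1 and 10 with column sums, 4 and 1 with TMM factors from TSS-class ACS, 1 Up by DESeq2, 1 and 13 with a mean count of at least 50 (where 19.6% of all TSS-class ACS were Down), and 1 and 1 at an adjusted p under 0.05. At DISTAL ACS, 14 and 5 became 9 and 2 with a mean count of at least 50, which leaves 50 of the 97, and 7 and 1 at an adjusted p under 0.05, and the Down calls fell to 1 with TMM factors from TSS-class ACS, 2 by limma voom and 3 by DESeq2. At PROXIMAL ACS, 1 and 1 became 2 and 0 with TMM factors from TSS-class ACS and 0 and 0 at an adjusted p under 0.05, and the Up call was lost (0) with column sums and with a mean count of at least 50. For promoters of the other pathway lists, 0 and 5 became 1 and 3 with TMM factors from TSS-class ACS, 0 and 11 both with column sums and with a mean count of at least 50, and 0 and 1 at an adjusted p under 0.05. Over all TSS-class ACS the shares also moved, to 1.78% Up and 17.2% Down with column sums. With TMM factors from TSS-class ACS they were 5.69% and 4.74%. The cause of these shifts was not tested. Column sums moved the median of all ACS by -0.09 and TMM factors from TSS-class ACS by 0.09 (log2). The median of the promoters ranged from -0.21 with column sums to -0.02 with TMM factors from TSS-class ACS, and *Mki67* found by gene ID, an alternative chosen after seeing the data, added no promoter call (2 Up and 4 Down).

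Leaving out 1 library gave 1 to 4 Up and 1 to 5 Down at promoters, 8 to 14 Up and 1 to 6 Down at DISTAL ACS, 0 to 1 Up and 0 to 1 Down at PROXIMAL ACS, and 0 to 1 Up and 1 to 7 Down for the other lists. The medians were -0.18 to -0.07 at promoters and -0.05 to 0.07 at DISTAL ACS. Of 27 called ACS, 11 kept their call in all 6 of these fits, and leaving out Adult 4 lost the most, 14. The counts were lowest for Down at promoters without P10 2 (1) and for Down at DISTAL ACS without Adult 4 (1), and highest for Up at promoters without Adult 5 (4).

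The sign turned at promoters near 0. With column sums, *Smc2* lay at -0.019, *Ccna2* at -0.028 and *Mad2l1* at -0.070. With a mean count of at least 50 they lay at -0.015, -0.022 and -0.066. With TMM factors from TSS-class ACS, *Mcm4* lay at 0.00054 and *Mcm2* at 0.085. Leaving out 1 library gave -0.053 (without P10 1) to 0.16 for *Smc2*, -0.0072 (without P10 1) to 0.12 for *Ccna2*, -0.055 (without P10 1) to 0.092 for *Mad2l1*, and -0.085 to 0.056 (without P10 1) for *Mcm2*. No called ACS changed sign under any of these settings. No paired analysis was possible because the adult libraries carry the numbers 4, 5 and 6 and the P10 libraries 1, 2 and 3, which share none. Counts limit the precision most at DISTAL ACS, where the median standard error was 0.32 on the log2 scale, against 0.19 at the promoters.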

Other observations

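*Mki67*, the gene of the proliferation marker Ki-67, has no symbol in the deposited table, but 20 ACS carry its gene ID (291234, matched in RefSeq). They were looked up after the symbol gave none. The ACS over its start (chr1:214952142-214953053, Rn5) held 61.4, 49.4 and 48.7 CPM in adults and 54.2, 59.9 and 53.9 CPM in P10, which overlap. The log2 fold change was -0.07, with an interval from -0.39 to 0.25, and the ACS was not called in any fit that leaves out a library. Of the 20 ACS, 0 were called Up and 2 Down by edgeR, both DISTAL, at -0.76 and -0.85, with 0 higher in adults at an unadjusted p under 0.05 and 0 Up by limma voom or DESeq2. Over all ACS the shares were 12.3% Up and 6.63% Down, and over all DISTAL ACS 13.8% and 6.45%. Each of the Down calls was made in 2 of the 6 fits that leave out a library.

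DISTAL ACS of the other E2F, RB and MuvB genes had 13 calls Up and 2 Down among 57, those of other replication genes 24 and 12 among 138, and those of other mitosis genes 9 and 2 among 80. As shares these are 22.8% and 3.51%, 17.4% and 8.70%, and 11.2% and 2.50%, where 13.8% of all DISTAL ACS were called Up and 6.45% Down. Their medians were 0.14, 0.02 and -0.03, beside 0.02 for all DISTAL ACS.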
